A study of Homo sapiens with 12 samples.

Results

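The nuclear genes of oxidative phosphorylation (OXPHOS) were described complex by complex in HEK293T cells with and without knockdown of PRRC2B, an RNA-binding protein. Members were found by gene symbol, as the NDUFA, NDUFB, NDUFC, NDUFS and NDUFV genes of complex I, SDHA to SDHD of complex II, the UQCR genes and CYC1 of complex III, 10 COX genes of complex IV and the ATP5F1, ATP5M and ATP5P genes of complex V. The patterns matched 105 of the 59385 gene names in the count table. Of these, 77 were subunit genes (37 of complex I, 4 of complex II, 9 of complex III, 10 of complex IV and 17 of complex V), 26 were pseudogenes, 1 was the readthrough ATP5MF-PTCD1 and 1 was ATP5MGL, a paralog of ATP5MG. The filter on low counts kept 78 of the 105 entries, namely 76 subunit genes (all but NDUFA6) and 2 pseudogenes, out of 18166 gene names tested in all.

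HEK293T is an established human embryonic kidney line. All cells carried a short hairpin RNA (shRNA) switched on by doxycycline (Dox), either a non-silencing control (shCtrl) or one against PRRC2B (shPRRC2B), and were lysed after 36 h of Dox and a short cycloheximide treatment that holds ribosomes on mRNA. Total RNA and the RNA of the pooled heavy (polysome) fractions of a sucrose gradient were sequenced from poly(A)-selected RNA, with 3 biological replicates in each of the 4 combinations of line and fraction (12 libraries). Each shRNA was carried by a stable line grown from a single clone, so shRNA and clone cannot be told apart in any comparison between the lines.

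The nuclear OXPHOS genes encode most subunits of the respiratory chain and of ATP synthase, and the mitochondrial genome encodes the rest. Complexes I, III and IV pass electrons from NADH to oxygen and pump protons across the inner mitochondrial membrane, complex II feeds in electrons from succinate, and complex V uses the proton gradient to make ATP. The nuclear-encoded subunits are translated on cytosolic ribosomes and imported. Many of the accessory subunits are very small proteins with short coding sequences, so their mRNAs have room for few ribosomes. The polysome-to-total ratio of an mRNA is its level in the heavy fractions relative to its level in total RNA. The change of that ratio from shCtrl to shPRRC2B cells, on the log2 scale, is called the change in translation efficiency (TE) here, after the study.

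Libraries held 9855734 to 20837542 counts. The levels below are TMM-normalized CPM (counts scaled to a common library size) and are not compared between genes. PRRC2B itself lay at 258 to 313 CPM in shCtrl total RNA and at 97.9 to 102 CPM in shPRRC2B total RNA, a log2 change of -1.49 (standard error, SE, 0.17). Replicates of total RNA resembled each other more than replicates of polysome RNA did (3.26 to 8.57 against 13.8 to 75.2 in chi-square per gene between pairs of libraries). In polysome RNA of both lines replicate 1 stood furthest from its group. The noncoding nuclear RNA MALAT1 lay at 15.0, 162 and 369 CPM in the shCtrl polysome libraries and at 4.39, 17.0 and 7.33 CPM in the shPRRC2B polysome libraries, lower in shPRRC2B cells (log2 change -4.26). Of the 5 noncoding RNAs listed as markers of nuclear RNA and RNA quality, RMRP and NEAT1 were also tested, with log2 changes of -3.01 and -0.68 in polysome RNA, and RN7SK and RPPH1 did not pass the filter. Of 5 genes usually detected in HEK293T cells (PAX2, LHX1, LIN28B, NEFM and NEFL), summed shares were 0.0738% to 0.0815% of counts in shCtrl total RNA and 0.0453% to 0.0466% in shPRRC2B total RNA, and 1 of them was at 0 in each polysome group. Of 10 genes of other cell types, the summed share was at most 0.0047% in any library, with 2 to 4 of them at 0 in each group. What part these differences have in the results below was not tested.

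The summed share of the 77 subunit mRNAs among all counts describes how much of each fraction they made up. In total RNA the share was 0.887%, 0.933% and 0.836% in the 3 shCtrl libraries and 0.818%, 0.802% and 0.806% in the 3 shPRRC2B libraries. The shPRRC2B values lay below all of the shCtrl values. In polysome RNA the share was 4.22%, 3.75% and 3.05% in shCtrl cells and 4.55%, 4.27% and 4.67% in shPRRC2B cells, so subunit mRNAs made up several times more of the polysome libraries than of the total libraries in both lines. The order of the lines was opposite in the fractions, with the polysome libraries of shPRRC2B cells all above those of shCtrl cells. Complex I, with the most genes, held 1.12% ± 0.197 (SD, n = 3) of shCtrl polysome counts, and complex IV, with 10 genes, held 1.07% ± 0.221 (SD, n = 3). In shPRRC2B polysome RNA these shares were 1.39% ± 0.0634 and 1.20% ± 0.0754 (SD, n = 3). Complex II made up the least, at 0.0479% ± 0.0103 and 0.0719% ± 0.0138 (SD, n = 3). In shCtrl polysome RNA replicate 3 had the lowest share in each of the 5 complexes and also the highest MALAT1 level. In bulk RNA, fewer cells with an mRNA and less of it per cell cannot be told apart.

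Upon PRRC2B knockdown, TE was higher for many of the small accessory subunits and lower for the core proteins of complex III, and most of these calls were not made once a trend of counts on length was removed. The calls TE-up and TE-down stand for log2 changes beyond 0.5 and -0.5 at an adjusted p of less than 0.05. Every adjusted p below is that of edgeR's quasi-likelihood test, adjusted over all genes tested by Benjamini-Hochberg. TE-up calls were made for 25 of the 76 subunits and TE-down calls for 2, beside 10.7% TE-up and 16.4% TE-down among all 18166 genes tested. The median log2 TE change was 0.42 over the subunits and -0.03 over all genes tested, and 60 of 76 subunits lay above 0. By complex, 10 of 36 tested subunits of complex I, 0 of 4 of complex II, 5 of 9 of complex III, 4 of 10 of complex IV and 6 of 17 of complex V were TE-up. Both TE-down subunits belonged to complex III. The medians were 0.37, 0.09, 0.59, 0.51 and 0.45 in that order, with SDs of 0.19, 0.12, 0.28, 0.25 and 0.16 between 3 values that each join the 4 libraries of 1 replicate number. The numbers were not taken to pair the libraries, so this joining may be arbitrary and the SDs are a rough guide. The differences between complexes were not tested. Leaving out the polysome library of shCtrl replicate 1 gave 35 TE-up and 7 TE-down subunits. That fit called 2532 TE-up and 3716 TE-down among 18992 genes, where the main fit called 1935 and 2981 among 18166. TE-up fell to 13 when the polysome library of shCtrl replicate 3 was dropped. It fell to 14 without that of shCtrl replicate 2, that of shPRRC2B replicate 3 or the total library of shPRRC2B replicate 2. TE-up calls over all genes fell in these fits as well, to between 1345 and 1629. Of the 25 TE-up subunits, 12 were called without each library in turn. A single TE-down subunit was left when the total library of shCtrl replicate 1 or 3, or of shPRRC2B replicate 1 or 2, was dropped. TE-down calls over all genes then numbered between 2333 and 2507. With the coding length trend of all genes removed, 5 subunits were TE-up and 2 TE-down, complex III held 0 TE-up calls and 1 TE-down call, and UQCRC1 was not called (log2 TE change -0.47, edgeR adjusted p = 0.0706).

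**Figure D1:**
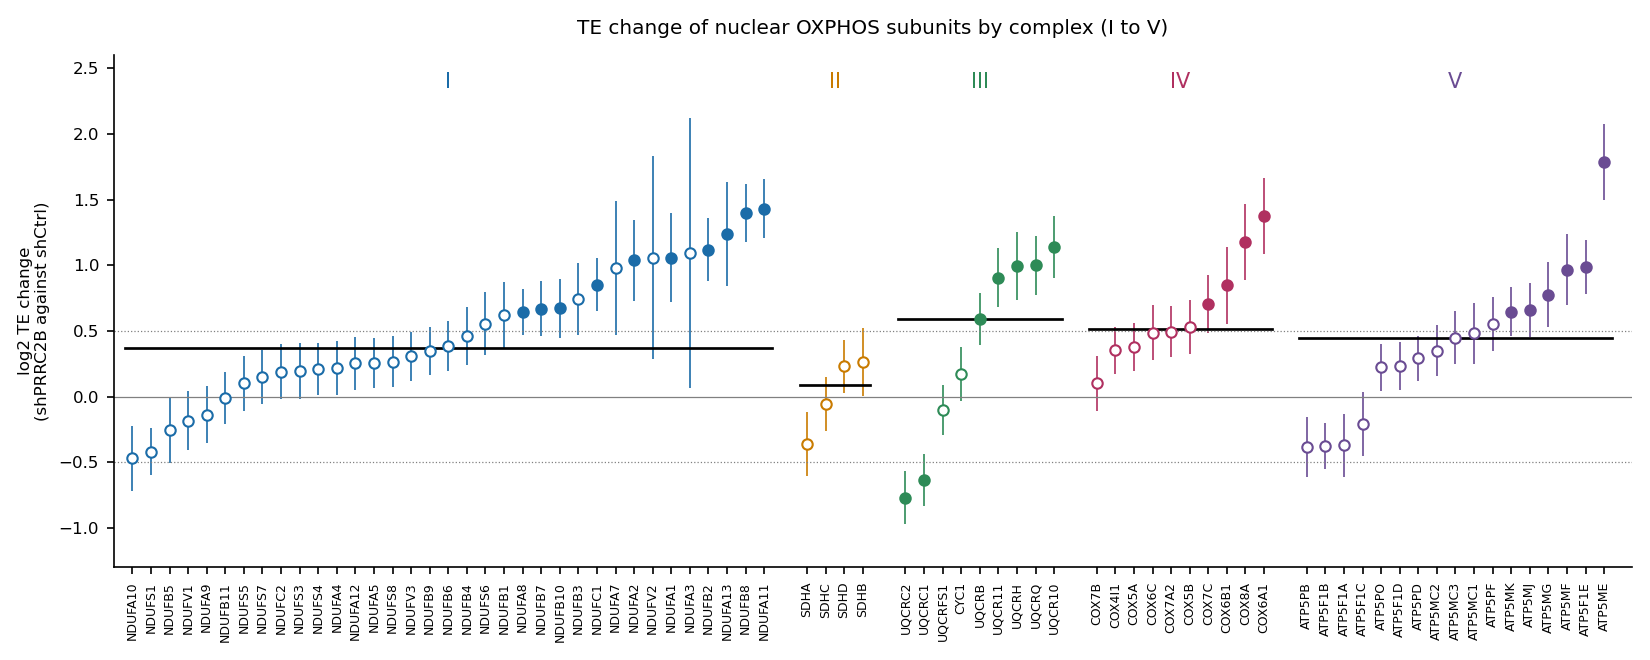
Log2 TE change of the subunits tested, ordered within complexes I to V, with 1 subunit of complex I not drawn. Points are fitted changes with the SE as bars, filled points passed both thresholds, black lines are medians of the complexes and dotted lines mark changes of 0.5 and -0.5. Complex IV is the complex with no subunit below 0, and the 2 filled points below 0 are UQCRC2 and UQCRC1.

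In complex I, the TE-up calls were all among accessory subunits, the proteins that surround the catalytic core. None of the 7 nuclear core subunits was called, and their median log2 TE change was 0.15, while 10 of the 29 accessory subunits tested were TE-up, with a median of 0.56, beside 10.7% TE-up among all genes. With 7 core genes, few calls could be seen at that share, and the difference between core and accessory subunits was not tested. With the coding length trend removed, 3 of the 29 accessory and 0 of the 7 core subunits were TE-up, with medians of 0.17 and 0.01. With the transcript length trend removed, 4 of the 29 accessory and 0 of the 7 core subunits were TE-up, beside 9.33% of all genes. In that fit 1 core subunit was TE-down, beside 12.5% of all genes, and the medians were 0.17 and -0.30. The highest and lowest TE changes that follow are those of the main fit. The highest of complex I was NDUFA11, a membrane-arm subunit (ENSG00000174886.14, chromosome 19 of GRCh38, 5891276 to 5904006, minus strand). Its level in total RNA was 15.3, 17.3 and 14.4 CPM in shCtrl cells and 11.8, 9.19 and 11.2 CPM in shPRRC2B cells, and in polysome RNA it was 74.7, 59.1 and 53.0 CPM against 131, 96.5 and 116 CPM. The lines did not overlap in either fraction, and the direction was opposite, lower in total and higher in polysome RNA of shPRRC2B cells. The log2 TE change was 1.43 (SE 0.22, edgeR adjusted p = 0.000245), a ratio 2.70 times higher. NDUFB8, another membrane-arm subunit (ENSG00000166136.16, chromosome 10, 100523740 to 100530000, minus strand), lay at 15.6, 15.7 and 14.2 CPM in shCtrl total RNA and at 7.84, 7.30 and 9.31 CPM in shPRRC2B total RNA. In polysome RNA it lay at 44.6, 44.7 and 33.7 CPM and at 67.7, 53.5 and 52.7 CPM. Again no library of one line fell within the range of the other. Its log2 TE change was 1.40 (SE 0.22, edgeR adjusted p = 0.00026).

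The flavin and the iron-sulfur clusters of complex I are carried by some of its core subunits. NDUFS1, the large iron-sulfur subunit, and NDUFV1, the NADH-binding flavoprotein, had log2 TE changes of -0.42 and -0.18. The core subunits NDUFS7, NDUFS3 and NDUFS8 had changes of 0.15, 0.20 and 0.27. NDUFV1 was lower in polysome RNA of shPRRC2B cells, with a log2 change of -0.57 (edgeR adjusted p = 0.0082). The lowest TE change of the complex was that of NDUFA10, an accessory subunit, at -0.47 (SE 0.25, edgeR adjusted p = 0.169). Its polysome level was 52.0, 83.3 and 78.4 CPM in shPRRC2B cells and 87.6, 122 and 145 CPM in shCtrl cells, a change of -0.73 on the log2 scale (edgeR adjusted p = 0.00271).

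Complex II, which has no mitochondrially encoded subunit, had no TE call, and its 4 subunits moved differently from each other. The iron-sulfur subunit SDHB (ENSG00000117118.11, chromosome 1, 17018664 to 17054032, minus strand) was higher in both fractions of shPRRC2B cells. In total RNA it lay at 44.8, 45.7 and 40.5 CPM in shCtrl cells and at 83.6, 87.5 and 86.2 CPM in shPRRC2B cells, which is 1.96 times higher on the fitted scale (log2 change 0.97, SE 0.18, edgeR adjusted p = 0.000683). In polysome RNA it lay at 175, 323 and 244 CPM and at 645, 651 and 452 CPM (log2 change 1.24, SE 0.18, edgeR adjusted p = 4.29e-05). The lines did not overlap in either fraction, the rise was of similar size in both, and the TE change was 0.26 (SE 0.26, edgeR adjusted p = 0.481). SDHA, the flavoprotein that oxidises succinate, had the lowest TE change of the complex (-0.36, SE 0.25, edgeR adjusted p = 0.296) and was lower in polysome RNA, at 5.59, 5.64 and 7.99 CPM against 9.46, 8.79 and 10.8 CPM (log2 change -0.60, edgeR adjusted p = 0.0154). The membrane anchors SDHC and SDHD had TE changes of -0.06 and 0.23, and neither was called in either fraction.

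Complex III held calls in both directions, and they fell along the sizes of its proteins. The 5 TE-up subunits were the small proteins UQCR10, UQCRQ, UQCRH, UQCR11 and UQCRB, and the 2 TE-down subunits were the large core proteins UQCRC1 and UQCRC2. The TE-up call of UQCRB was made in 2 of the 12 fits with 1 library left out. Those of UQCR10, UQCRQ, UQCRH and UQCR11 were made in all 12. UQCR10 (ENSG00000184076.13, chromosome 22, 29767369 to 29770413, plus strand) had the highest change. Its polysome level was 878, 579 and 553 CPM in shCtrl cells and 1018, 1016 and 1245 CPM in shPRRC2B cells, and its level in total RNA was 40.6, 46.2 and 36.6 CPM against 31.2, 32.6 and 27.7 CPM. All 3 shPRRC2B libraries were above the shCtrl libraries in polysome RNA and below them in total RNA. The log2 TE change was 1.14 (SE 0.24, edgeR adjusted p = 0.00216). UQCRQ followed at 1.00 (SE 0.22, edgeR adjusted p = 0.00352), with a total RNA level of 95.5, 121 and 86.0 CPM in shCtrl cells and 63.4, 60.9 and 64.3 CPM in shPRRC2B cells, again with no overlap. In polysome RNA the lines overlapped for UQCRQ (2046, 1481 and 1420.0 CPM against 1904, 2047 and 2227 CPM).

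UQCRC2 (ENSG00000140740.11, chromosome 16, 21953288 to 21983660, plus strand) had the lowest TE change of all 76 subunits, -0.77 (SE 0.20, edgeR adjusted p = 0.00964). In total RNA it was 138, 128 and 131 CPM in shCtrl cells and 176, 176 and 173 CPM in shPRRC2B cells, and in polysome RNA it was 189, 274 and 301 CPM against 188, 210.4 and 194 CPM. The lines were apart in total RNA and overlapped in polysome RNA, where shCtrl replicate 1 lay among the shPRRC2B values. UQCRC1 (ENSG00000010256.11, chromosome 3, 48599002 to 48610976, minus strand) had a polysome level of 284, 407 and 339 CPM in shCtrl cells and 146, 179 and 159 CPM in shPRRC2B cells, and a total level of 195, 218 and 175 CPM against 146, 148 and 136 CPM. It was lower in both fractions with no overlap, more so in polysome RNA (log2 change -1.09, SE 0.14, edgeR adjusted p = 1.26e-05), and its TE change was -0.64 (SE 0.20, edgeR adjusted p = 0.0247). This is the TE-down call lost when any of the 4 total libraries named above was dropped. The electron carriers CYC1 (cytochrome c1) and UQCRFS1 (the Rieske iron-sulfur protein), intermediate in coding length, had TE changes of 0.17 and -0.10 and were not called in any comparison between the lines.

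In complex IV all 10 subunits had TE changes above 0, from 0.10 for COX7B to 1.38 for COX6A1, and 4 were called. COX6A1, the widely expressed form of subunit 6A (ENSG00000111775.3, chromosome 12, 120438090 to 120440737, plus strand), lay at 67.7, 86.8 and 59.3 CPM in shCtrl total RNA and at 26.3, 24.7 and 19.8 CPM in shPRRC2B total RNA, a level 3.02 times lower on the fitted scale (log2 change -1.60, SE 0.21, edgeR adjusted p = 2.41e-05). In polysome RNA the lines overlapped, at 1035, 629 and 581 CPM and at 566, 611 and 751 CPM (log2 change -0.22, edgeR adjusted p = 0.393). Its TE change of 1.38 (SE 0.29, edgeR adjusted p = 0.00216) was thus that of an mRNA lower in total RNA with no called change in polysome RNA. COX8A had the same form, with a TE change of 1.18 (SE 0.29, edgeR adjusted p = 0.00625), a total RNA change of -0.81 (edgeR adjusted p = 0.00617) and a polysome change of 0.37 (edgeR adjusted p = 0.15). The subunits next to the catalytic core had TE changes of 0.35 for COX4I1, 0.38 for COX5A and 0.53 for COX5B. None of them was called, and the median of the complex was 0.51. COX4I1 was higher in polysome RNA of shPRRC2B cells, at 2420.0, 2750.0 and 2650.0 CPM against 1714, 1637 and 1585 CPM (log2 change 0.66, SE 0.13, edgeR adjusted p = 0.000414), while its total RNA change of 0.31 did not pass (edgeR adjusted p = 0.067). COX7B, at the low end, was within 0.10 of 0 in each of TE, total and polysome RNA.

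Complex V is built of the F1 head that makes ATP, the c ring with its membrane partners (Fo), and the stalks that join them. Of the 5 F1 subunits, ATP5F1E (epsilon) was TE-up and the other 4 were not called, with changes of -0.38 for the catalytic beta subunit ATP5F1B, -0.37 for ATP5F1A (alpha), -0.21 for ATP5F1C (gamma) and 0.23 for ATP5F1D (delta). The genes of subunit c, ATP5MC1, ATP5MC2 and ATP5MC3, encode the same mature protein behind different import signals, and their TE changes were close to each other at 0.48, 0.35 and 0.45, none of them called. Of the 9 other Fo and stalk subunits, 5 were TE-up, with a median of 0.65. ATP5ME, subunit e of the membrane part (ENSG00000169020.10, chromosome 4, 672436 to 674330, minus strand), had the highest TE change of all 76 subunits. It lay at 13.1, 20.1 and 14.1 CPM in shCtrl total RNA and at 5.69, 6.33 and 8.26 CPM in shPRRC2B total RNA. In polysome RNA it lay at 200.2, 135 and 116 CPM and at 220.1, 202 and 244 CPM. All shPRRC2B libraries were below the shCtrl libraries in total RNA and above them in polysome RNA, and the ratio rose 3.45 times (log2 TE change 1.79, SE 0.29, edgeR adjusted p = 0.000298).

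ATP5F1E reached 2407, 2169 and 2654 CPM in shPRRC2B polysome RNA against 1586, 1448 and 1433 CPM in shCtrl polysome RNA, with no overlap (log2 change 0.70, SE 0.14, edgeR adjusted p = 0.000875). Its total RNA levels overlapped (87.4, 94.4 and 67.9 CPM against 62.0, 66.7 and 75.6 CPM), and its TE change was 0.99 (SE 0.20, edgeR adjusted p = 0.00208). The lowest TE change of complex V was that of ATP5PB, subunit b of the peripheral stalk, at -0.39 (SE 0.23, edgeR adjusted p = 0.221). Its polysome level was 407, 673 and 704 CPM in shCtrl cells and 463, 448 and 434 CPM in shPRRC2B cells, and shCtrl replicate 1 alone lay below the shPRRC2B libraries.

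**Figure D2:**
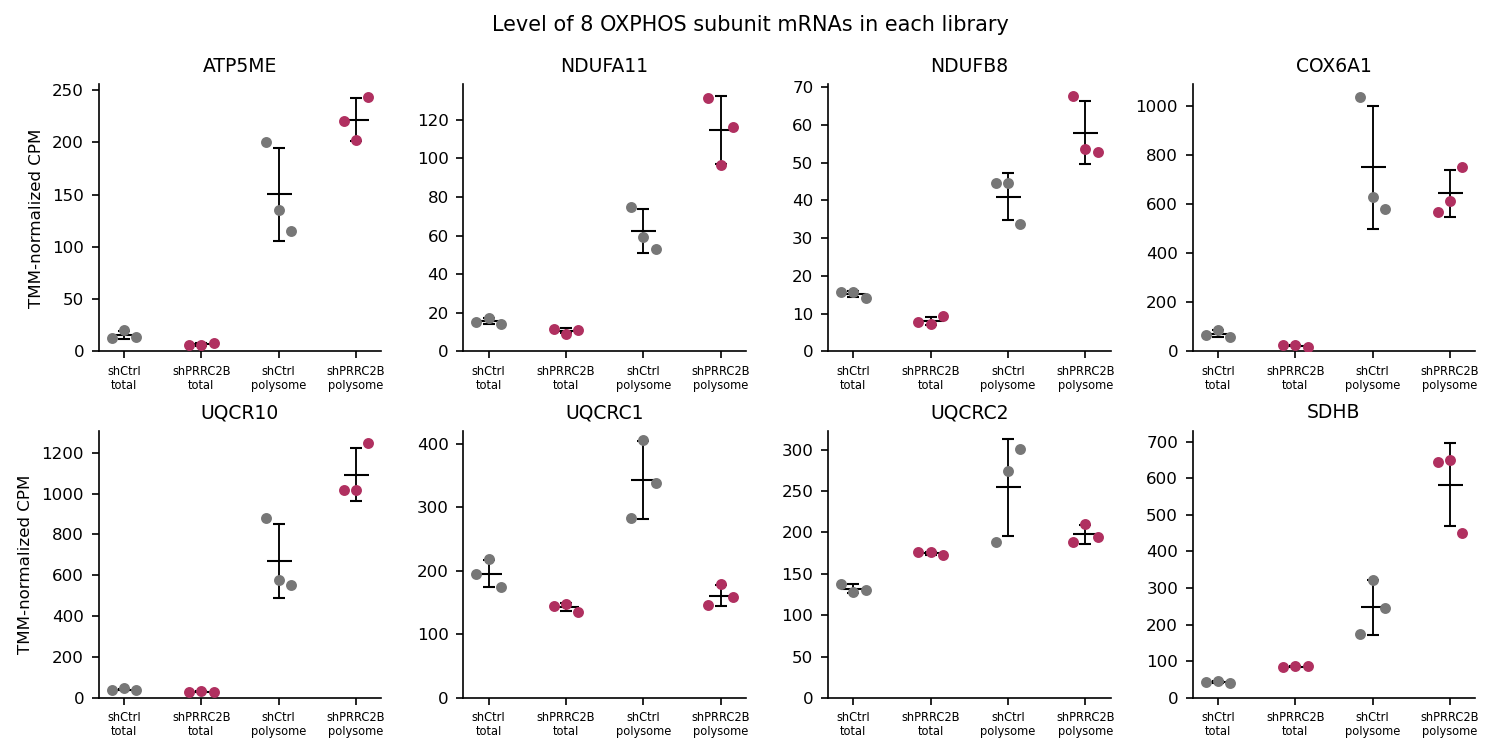
TMM-normalized CPM of 8 subunit mRNAs in each of the 12 libraries. Points are libraries (grey, shCtrl, and red, shPRRC2B) and bars are the mean ± SD of 3 libraries. ATP5ME, NDUFA11, NDUFB8 and UQCR10 are lower in total RNA and higher in polysome RNA of shPRRC2B cells, COX6A1 is lower in total RNA only, UQCRC1 is lower in both fractions, UQCRC2 is higher in total RNA, and SDHB is higher in both fractions.

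A TE call can arise in either fraction. Of the 25 TE-up subunits, 12 passed the thresholds by higher polysome RNA alone, among them ATP5F1E and UQCR10, 6 by lower total RNA alone (COX6A1, COX7C, COX8A, NDUFA1, NDUFB8 and UQCRQ), 3 by both (ATP5ME, NDUFA11 and NDUFB2) and 4 by neither (ATP5MF, ATP5MG, NDUFA8 and UQCRB). UQCRC1 passed by lower polysome RNA and UQCRC2 by neither fraction alone. In total RNA, 1 subunit, SDHB, was higher in shPRRC2B cells and 12 were lower, beside 14.9% higher and 14.1% lower among all genes tested, and the median log2 change was -0.21 (0.04 over all genes tested). Apart from COX6A1, the largest of the 12 falls was that of NDUFA1, a small membrane-arm subunit of complex I, from 63.1, 73.3 and 53.8 CPM to 26.3, 22.5 and 23.1 CPM (log2 change -1.41, SE 0.25, edgeR adjusted p = 0.000341). The count of lower subunits in total RNA was 4 of 10 in complex IV, 6 of 36 in complex I, 1 of 9 in complex III, 1 of 17 in complex V and 0 of 4 in complex II. Scaling by total counts gave 20 lower subunits in place of 12, beside 2978 in place of 2565 lower among all genes tested.

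In polysome RNA, 21 subunits were higher and 6 were lower in shPRRC2B cells, beside 18.4% higher and 21.4% lower among all genes tested, with a median of 0.24 (-0.01 over all genes tested). The 6 lower subunits included UQCRC1, NDUFA10, SDHA, NDUFV1 and NDUFA4, and 5 of the 6 are among the 15 subunits with 800 nt or more of coding sequence. NDUFA4 is counted in complex I by its symbol and has since been assigned to complex IV. With the coding length trend removed, 7 were higher (9.21%) and 11 lower (14.5%), beside 19.0% and 22.3% of all genes. With the transcript length trend removed, 10 were higher (13.2%) and 11 lower (14.5%), beside 17.6% and 20.2%. In both fits the share of subunits called was below that of all genes in each direction. The count of higher subunits was 9 without shCtrl polysome replicate 3. It was 12 without shCtrl polysome replicate 2 or shPRRC2B polysome replicate 3 and 13 without shPRRC2B polysome replicate 1. Higher calls over all genes fell in these fits as well, from 3335 to between 2493 and 2718. Total and polysome changes share no library, but the TE change is computed from both.

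**Figure D3:**
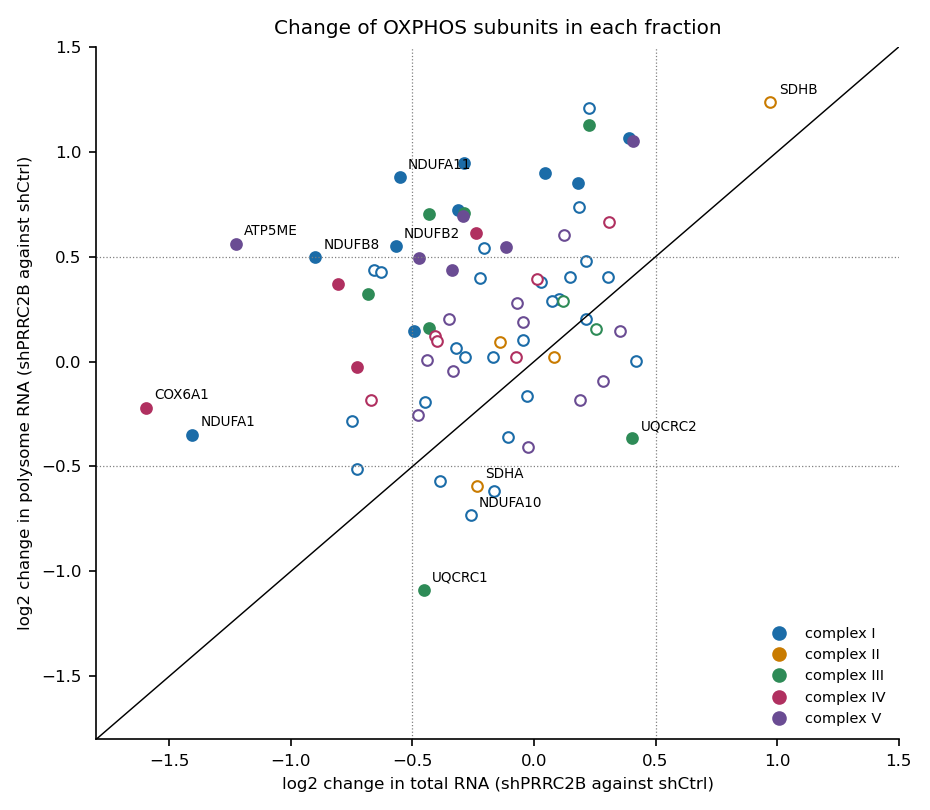
Log2 change from shCtrl to shPRRC2B cells in total RNA (x axis) and in polysome RNA (y axis) of the 76 subunits, coloured by complex. Filled points are TE calls, dotted lines mark 0.5 and -0.5, and points above the diagonal have a TE change above 0. The 60 subunits above the diagonal include ATP5ME, NDUFA11 and NDUFB2 in the upper left, past both dotted lines.

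Within each line, OXPHOS mRNAs were far more abundant in polysome RNA than in total RNA relative to other genes. In shCtrl cells 66 of the 76 subunits were above and 3 below (NDUFS1, NDUFA13 and SDHA), beside 32.5% above and 39.8% below among all genes tested, with a median log2 polysome-to-total ratio of 3.06 (-0.22 over all genes tested). In shPRRC2B cells 65 were above and 3 below, NDUFS1 and SDHA among them, beside 36.6% and 42.3%, with a median of 3.48 (-0.22 over all genes tested). The ratio is relative, since TMM scaling sets the level of the typical gene equal between libraries whatever the RNA content of the fraction. Complex IV had the highest medians, 3.83 in shCtrl and 4.63 in shPRRC2B cells, and complex II the lowest, 2.18 and 2.28. The values of single subunits ran in shCtrl cells from -1.02 for SDHA to 4.49 for COX7B and in shPRRC2B cells from -1.38 for SDHA to 5.16 for UQCR10. In complex I, the 7 core subunits had a median of 0.04 in shCtrl cells and the 29 accessory subunits one of 3.18. In complex V, ATP5F1B and ATP5F1A had ratios of 0.43 and 0.84 in shCtrl cells, beside 4.16 for ATP5F1E. Scaling by total counts or by TMM within each fraction lowered the median ratio of all genes to -1.22 in shCtrl cells and -1.16 in shPRRC2B cells. Subunits above and below then numbered 61 and 9 in shCtrl cells and 62 and 8 in shPRRC2B cells. Among all 18166 genes tested, total count scaling gave 3211 above and 10675 below in shCtrl cells. In shPRRC2B cells it gave 4283 and 10204. TMM within each fraction gave 3189 and 10683 in shCtrl cells and 4296 and 10188 in shPRRC2B cells.

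**Figure D4:**
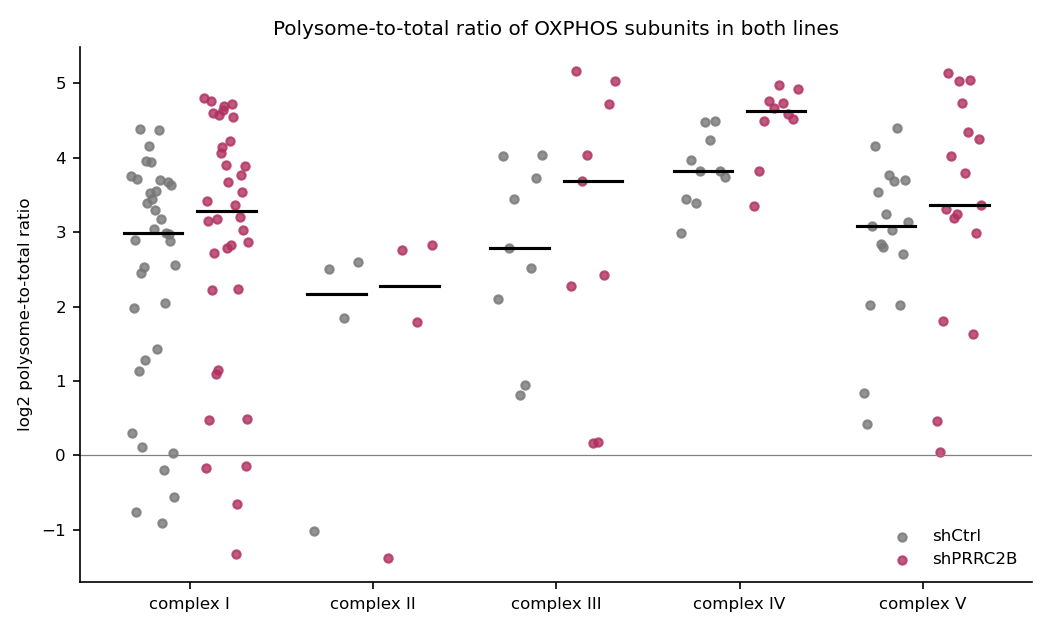
Log2 polysome-to-total ratio of the 76 subunits by complex in shCtrl (grey) and shPRRC2B (red) cells. Points are subunits, spread sideways for display, and black lines are medians, which are 3.83 and 4.63 in complex IV and 2.18 and 2.28 in complex II. The highest subunits in complexes I, III, IV and V lie above 4 in both lines.

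The coding length of the subunits ran with both measures. Coding lengths, taken from GENCODE 44 for each gene's canonical transcript, ran from 153 nt for ATP5F1E to 2181 nt for NDUFS1. Complex IV had the shortest median coding length (253.5 nt) and complex II the longest (673.5 nt). Of the 35 subunits tested with under 400 nt of coding sequence, 19 were TE-up and 0 TE-down, with a median log2 TE change of 0.75 and all 35 above 0. Among the 26 with at least 400 nt but under 800 nt, TE-up calls numbered 6 and TE-down calls 0, and the median was 0.32. The 15 with 800 nt or more held 0 TE-up and 2 TE-down calls (13.3%), and their median was -0.36. Among all genes tested 10.7% were TE-up and 16.4% TE-down, so the long class was not called TE-down more often than all genes. Across the 76 genes, Spearman's rho between coding length and the log2 TE change was -0.70, and between coding length and the log2 polysome-to-total ratio it was -0.74 in shCtrl cells and -0.83 in shPRRC2B cells. These correlations are across genes, which share the same 12 libraries and are no independent replicates. In median ratio, the short, middle and long classes lay at 3.72, 2.89 and 0.84 in shCtrl cells and at 4.59, 3.20 and 0.18 in shPRRC2B cells, so the short class was higher and the long class lower in shPRRC2B cells.

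The trend of counts on length over all genes was then removed from each library, and most of the TE calls were no longer made. With the trend on transcript length removed, 9 subunits were TE-up and 4 TE-down, beside 9.33% and 12.5% of 15762 genes, and the median was 0.05. Some of these were new calls, among them NDUFA5 (0.70) and NDUFV3 (0.79), TE-up, and ATP5F1C (-0.69), TE-down. The canonical transcripts of NDUFA5, NDUFV3 and the TE-up UQCRB are long, at 5496, 5725 and 8459 nt. What part the annotated length has in these calls was not tested. With the trend on coding length removed, which was added after the data were seen, 5 subunits were TE-up (NDUFB8 at 1.20, ATP5ME at 1.12, NDUFA11 at 1.09, COX6A1 at 0.93 and NDUFB2 at 0.66) and 2 were TE-down (UQCRC2 at -0.63 and COX7B at -0.51), beside 10.4% and 14.0% of 13609 genes, with a median of 0.10. With that trend removed, the share of the 76 subunits called was no higher than the share of all genes in either direction. By complex, the medians after removal of the coding length trend were 0.12, -0.06, 0.15, 0.08 and 0.02 for complexes I to V. In the polysome-to-total ratio with the coding length trend removed, 57 subunits were above and 4 below in shCtrl cells, beside 31.0% and 30.2% of all genes, and 61 were above and 3 below in shPRRC2B cells, beside 34.5% and 34.4%, with medians of 1.03 and 1.11. The subunits below were in part different genes. UQCR11 went from above to below in both lines (from 2.79 to -0.73 in shCtrl and from 3.69 to -0.60 in shPRRC2B cells), NDUFA7 did so in shPRRC2B cells (from 1.10 to -1.70), and SDHA and NDUFS1 were no longer called below in either line. ATP5ME, NDUFA11, NDUFB8 and COX6A1 were TE-up and UQCRC2 was TE-down in each of the 12 alternatives in which the TE fit was repeated and without each library in turn.

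**Figure D5:**
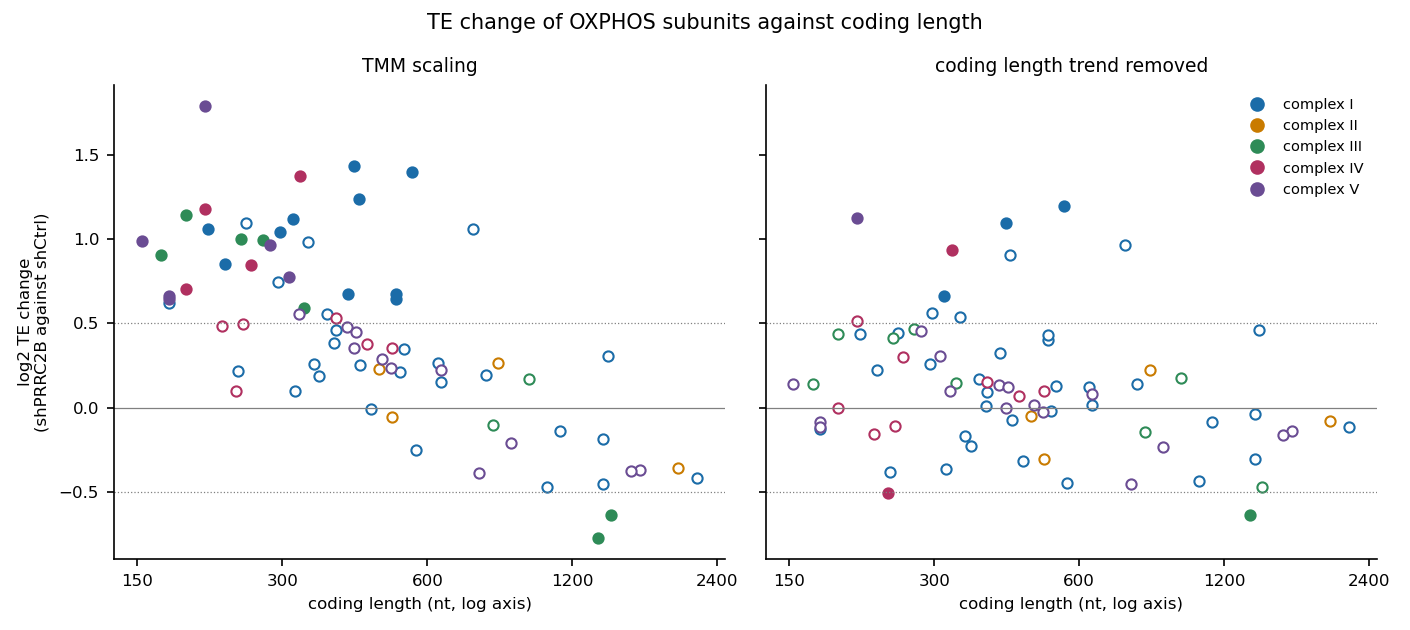
Log2 TE change of the 76 subunits against coding length (log axis), with TMM scaling on the left and with the trend of counts on coding length removed from each library on the right. Colours are complexes, filled points passed both thresholds and dotted lines mark 0.5 and -0.5. On the left 19 of the 25 TE-up subunits have under 400 nt of coding sequence. On the right 5 TE-up and 2 TE-down subunits are filled, among them COX7B (TE-down), which is not filled on the left.

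Exons of several of these genes overlap other annotated genes, and by the counting options given in the methods a read pair on several genes was left out, with no use of strand. Of the exonic bases of the canonical transcript, 68.2% of NDUFA11, 72.0% of NDUFB8, 39.6% of ATP5ME, 32.6% of COX6A1, 35.4% of COX8A, 32.7% of ATP5F1E, 69.4% of SDHA and 51.3% of NDUFS7 lie in exons of another gene in GENCODE 44. What part this has in their values was not tested. It was 90.0% for NDUFV2, 83.9% for NDUFA13 and 77.9% for NDUFA7. NDUFV2, the core subunit with the flavoprotein's 2Fe-2S cluster, had 4 to 45 counts per library and a TE change of 1.06 with an SE of 0.77 (edgeR adjusted p = 0.332), so no difference was detectable at this depth. NDUFA13 was TE-up on 24 to 181 counts per library (log2 change 1.24, SE 0.40, edgeR adjusted p = 0.028), and NDUFA3 and NDUFA7 had no TE call on at most 41 and 36 counts per library. NDUFA6 had at most 3 counts in any library and was not tested.

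Other genes of the pathway were followed by list, to be read beside 10.7% TE-up and 16.4% TE-down among all genes. Of the 13 mitochondrially encoded OXPHOS mRNAs, which are translated inside mitochondria and not on cytosolic polysomes, 0 were TE-up and 1 (MT-ND5) was TE-down, with a median TE change of -0.67. In total RNA 3 of them were higher and 0 lower in shPRRC2B cells, beside 14.9% and 14.1% of all genes tested. Their median was 0.58, where that of the nuclear subunits was -0.21. Their summed share of polysome counts was 4.54%, 1.85% and 2.61% in shCtrl cells and 5.25%, 2.61% and 2.52% in shPRRC2B cells, so replicate 1 of each line held the most, and the polysome values of these mRNAs spread widely. Of 50 assembly factors, the proteins that build the complexes without staying in them, 16 were TE-up and 1 TE-down, with a median of 0.41, from -1.31 for COX15 to 2.08 for PET117. Of 13 enzymes of the tricarboxylic acid cycle, which lies upstream of the chain, 1 was TE-up and 4 were TE-down (CS, DLD, DLST and OGDH), with a median of -0.53. Of 11 nuclear regulators of OXPHOS genes, 0 were TE-up and 3 were TE-down, PPARGC1A at -2.08, PPARGC1B at -1.68 and PPRC1 at -1.04. These counts also moved with the length trends. With the coding length or the transcript length trend removed, TE-up assembly factors numbered 6 or 7, with 2 TE-down in both. TE-down numbered 2 or 8 among the cycle enzymes, 1 or 0 among the regulators and 2 or 4 among the mitochondrial mRNAs. Of 4 subunits or partners outside the symbol patterns, ATP5IF1, the inhibitor of ATP synthase, was TE-up at 0.89 and NDUFAB1, COX7A2L and CYCS were not called. Of 9 tissue-specific paralogs, 3 passed the filter, and UQCRHL, which is nearly identical in sequence to UQCRH so that counts on it are uncertain, was TE-up at 0.90. With the coding length trend removed, neither of these lists held a TE-up call, and COX7A2L was TE-down at -0.56. With the transcript length trend removed, CYCS was TE-up at 0.78, and the paralogs held no TE call.

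Of the 28 matching entries that are no subunit gene, 26 are pseudogenes of ATP5MC1, ATP5MC2, ATP5MF and ATP5MG, and ATP5MC2P4 and ATP5MFP2 alone passed the filter, on at most 56 and 36 counts per library. Their TE changes were 0.70 (SE 0.74, edgeR adjusted p = 0.522) and 1.32 (SE 1.02, edgeR adjusted p = 0.358). Read pairs of a subunit mRNA may be placed on a near-identical pseudogene copy, so the values of these entries are uncertain. Of the pseudogenes, 11 had a count in any library. The readthrough ATP5MF-PTCD1 had at most 11 counts and ATP5MGL at most 5.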

How the data were processed

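The authors deposited raw counts of read pairs per gene name, 1 column for each of 12 libraries, with no normalization (0 columns belonged to no library). According to the submitters' processing notes, reads were demultiplexed with bcl2fastq 2.19.0, trimmed with Trimmomatic 0.36, mapped to GRCh38 with HISAT2 2.1.0 (the methods give another version) and counted with featureCounts of Subread 2.0.1 on GENCODE 38 (annotation release from the methods). Depth limits the precision of genes with few counts.

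Here the counts were fitted in R 4.3.3 with edgeR 4.0.16 (quasi-likelihood test, 4 groups, TMM over all 12 libraries). Genes were kept by filterByExpr with a minimum count of 10, and p-values were adjusted by Benjamini-Hochberg over all 18166 genes kept. Calls needed a log2 change beyond 0.5 in size at an adjusted p of less than 0.05. The script was tested on simulated counts. Alternatives used DESeq2 1.42.0, limma 3.58.1 on log2(CPM + 1), other scalings and filters, lowess trends on length (span 0.3) removed from each library, replicate blocks and each library left out. Gene positions, lengths and exon overlaps came from GENCODE 44 by gene name.

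Members and gene lists were chosen with earlier results of these data known. The text names the catalytic or redox-carrying subunits, in each complex the 2 highest and 2 lowest by TE change (1 each in complex II), and entries that did not pass the filter or are no subunit gene. Members with a PRRC2B binding site were also to be named. They are not described here, since those sites come from the supplementary tables and not from the deposited counts. NDUFA1, NDUFA3, NDUFA4, NDUFA5, NDUFA7, NDUFA13, NDUFB2, NDUFV3 and single genes of the other lists were named after their values were seen. Some single-gene results are not reported here.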

Additional observations from a re-analysis of the deposited data

Results flagged for a closer look

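The knockdown effect differed in direction between the fractions for 3 subunits, lower in total RNA and higher in polysome RNA of shPRRC2B cells with both changes past the thresholds. The polysome change minus the total change, tested as the interaction term in edgeR, was 1.79 for ATP5ME (adjusted p = 0.000298), 1.43 for NDUFA11 (adjusted p = 0.000245) and 1.12 for NDUFB2 (adjusted p = 0.0026), all on the log2 scale. NDUFB2, a small membrane-arm subunit of complex I, lay at 43.4, 49.0 and 44.2 CPM in shCtrl total RNA and at 33.1, 32.1 and 26.9 CPM in shPRRC2B total RNA. In polysome RNA it lay at 697, 494 and 386 CPM and at 759, 738 and 813 CPM. The polysome calls of ATP5ME and NDUFB2 were lost without any 1 of 5 polysome libraries, shCtrl replicate 2 or 3 or any shPRRC2B replicate. The total RNA calls of NDUFA11 and NDUFB2 were lost without shCtrl total replicate 2, that of NDUFA11 also without shPRRC2B total replicate 2 and that of NDUFB2 without shPRRC2B total replicate 3. With a length trend removed, these total RNA calls and the polysome calls of ATP5ME and NDUFB2 were lost as well. The TE calls of all 3 were made without each library in turn, and that of NDUFB2 was lost with the transcript length trend removed.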

How the results depend on the processing

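With the coding length trend removed, TE-up subunits numbered 5, subunits higher in total RNA 3, and subunits higher and lower in polysome RNA 7 and 11, and the median TE changes of complexes I to V were 0.125, -0.063, 0.149, 0.084 and 0.016. With the transcript length trend removed, without or with the replicate block, TE-up numbered 9 and 9, TE-down 4 and 4, higher in total RNA 3 and 4, higher in polysome RNA 10 and 10, and below total 7 and 7 in shCtrl and 9 and 9 in shPRRC2B cells. Lower in polysome RNA numbered 11 without the block. The medians were 0.154 and 0.167 for complex I, -0.312 and -0.31 for complex II, 0.021 and 0.024 for complex IV and 0.061 and 0.07 for complex V. Subunits below total numbered 9 in shCtrl and 8 in shPRRC2B cells by TMM within each fraction, beside 10683 and 10188 of all 18166 genes tested. They numbered 9 and 8 by total count scaling, beside 10675 and 10204. That scaling also gave 20 subunits lower in total RNA, beside 2978 of all genes tested. With no minimum log2 change, 4 were higher and 21 lower in total RNA. Calls over all genes were not counted at that setting. Leaving out each library in turn gave 13 to 35 TE-up, 1 to 7 TE-down, 10 to 17 lower in total RNA, 9 to 25 higher and 6 to 8 lower in polysome RNA, 2 to 3 below total in shCtrl cells, and medians of 0.209 to 0.403, -0.085 to 0.149, 0.442 to 0.729, 0.352 to 0.599 and 0.257 to 0.504 for complexes I to V. SDHB was higher in total RNA in each of these fits. With a library left out, calls over all genes ranged from 1285 to 2532 for TE-up and from 2333 to 3716 for TE-down. Genes lower in total RNA then numbered 1916 to 3194. In polysome RNA, 2493 to 3353 genes were higher and 3784 to 4647 lower. The cause of these differences was not tested. DESeq2 and limma each gave 27 TE-up and 2 TE-down subunits. Among all 18166 genes tested, DESeq2 gave 2159 TE-up and 3360 TE-down and limma gave 2367 and 2932.

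Libraries that share a replicate number did not deviate together (correlations from -0.06 to 0.051), so the number was not taken to pair them. With the replicate block alone TE-up was 26 and TE-down 2, beside 1812 and 2807 of all 18166 genes tested. No count over the members moved by more than 1.5 times with this block.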
